A study of Mus musculus with 8 samples.

Results

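The 46 genes described here encode ligands, receptors, SMAD transducers, antagonists and regulators of TGF-beta, bone morphogenetic protein (BMP) and activin signalling. They were taken as a named list of gene symbols, and all 46 were found among the 46983 genes of the count table. RNA came from tail epidermis of 8 mice aged 8 weeks, peeled off the dermis after dispase treatment, with 1 library per mouse. The 4 control mice (CTR) had the genotype K14-Cre/+ Ppp1r8 fl/+ and the 4 knockout mice (SKO) K14-Cre/+ Ppp1r8 fl/-, so both groups carried the Cre transgene and a floxed allele. The KRT14 promoter drives Cre in basal keratinocytes of the epidermis and its appendages, and Ppp1r8 encodes NIPP1, which binds and regulates the phosphatase PP1 in the nucleus. By these genotypes, Cre would leave 1 intact Ppp1r8 allele in CTR keratinocytes, so CTR is not a wild-type group. The - allele is not limited to keratinocytes, so effects of its loss in other cells cannot be told apart. The study asked what NIPP1 does in epidermal homeostasis.

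Ligands of this superfamily bind pairs of type I and type II serine/threonine kinase receptors. TGF-beta and activin receptors phosphorylate SMAD2 and SMAD3, BMP receptors phosphorylate SMAD1, SMAD5 and SMAD9, and both sets enter the nucleus with SMAD4. In skin, TGF-beta restrains keratinocyte division, BMP signals pattern the hair follicle and drive hair shaft differentiation, and activin acts in wound repair. Secreted proteins such as follistatin, noggin and gremlin bind the ligands and keep them from their receptors, and SMAD6 and SMAD7 act as inhibitors inside the cell.

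Before the values of single genes, 3 promoters are shown, those of the SMAD and target genes of the BMP branch that were lower in SKO and for which RefSeq (GRCm38.p6) gave a sequence. Each runs from 250 bases before to 50 bases after the annotated start, 5′ to 3′ on the strand of the gene, with matches to the searched letters in capitals.
Smad6 (chr9:64022010-64022309, minus strand): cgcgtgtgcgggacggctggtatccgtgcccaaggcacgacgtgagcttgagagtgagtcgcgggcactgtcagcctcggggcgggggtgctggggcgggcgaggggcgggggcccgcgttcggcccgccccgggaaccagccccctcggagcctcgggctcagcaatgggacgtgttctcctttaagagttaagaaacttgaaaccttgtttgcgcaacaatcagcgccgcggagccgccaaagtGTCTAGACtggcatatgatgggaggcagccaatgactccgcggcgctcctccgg
Smad9 (chr3:54755332-54755631, plus strand): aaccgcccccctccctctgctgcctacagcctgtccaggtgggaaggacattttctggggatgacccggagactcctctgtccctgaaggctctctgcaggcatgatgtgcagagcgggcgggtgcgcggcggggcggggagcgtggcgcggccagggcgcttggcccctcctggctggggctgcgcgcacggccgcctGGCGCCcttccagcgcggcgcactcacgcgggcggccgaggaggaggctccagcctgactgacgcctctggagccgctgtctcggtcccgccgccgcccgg
Id2 (chr12:25096043-25096342, minus strand): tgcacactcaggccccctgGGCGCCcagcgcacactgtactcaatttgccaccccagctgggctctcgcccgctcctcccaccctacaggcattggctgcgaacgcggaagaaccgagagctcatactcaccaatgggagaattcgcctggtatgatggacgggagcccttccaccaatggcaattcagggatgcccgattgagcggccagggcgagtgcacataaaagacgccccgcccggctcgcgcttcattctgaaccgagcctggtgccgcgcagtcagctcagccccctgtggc

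The letters searched on both strands were GTCTAGAC, the palindromic SMAD box, GGCGCC, a GC-rich SMAD-binding sequence, and CAGACA with its reverse complement TGTCTG, a single SMAD-binding element. GTCTAGAC stood in 0.213% of all 32851 promoters of the RefSeq table and in 1 of the 45 promoters of 33 members found there, that of Smad6. In Smad6 it lay across the start, from base -4 to base 4 (base 1 is the first transcribed base, and there is no base 0). GGCGCC stood in 11.9% of all promoters and in 14 of the 45 member promoters (31.1%), from base -51 in Smad9 and from base -231 in Id2. CAGACA or TGTCTG stood in 21.0% of all promoters and in 11 of the 45 (24.4%). These are matches of letters and say nothing of binding.

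Levels are given as normalised CPM, the counts of a gene divided by the library's effective size and scaled as in CPM. A gene was called when its adjusted p was under 0.05 (edgeR quasi-likelihood test over all tested genes, Benjamini-Hochberg adjustment), and rose, fell, higher and lower below refer to SKO against CTR. Of the 46 genes, 45 passed the count filter and were tested, and Gdf10, which encodes a BMP-related ligand, had 14 counts in each group and was not tested. Among the 45, 2 rose and 13 fell. The 15 called genes were 33.3% of those tested, against 23.7% of all 15638 genes tested. The 13 that fell were 28.9%, against 12.2% of all tested genes, and the 2 that rose were 4.44%, against 11.5%. The median log2 fold change was -0.17 over the members and -0.00 over all tested genes. Bmpr1b, Smad9 and Acvr2b passed the filter through CTR, and Chrd and Inhba through SKO, so these counts are a description. For 18 of the 45 (40.0%) the libraries of the groups did not overlap, against 26.2% of all tested genes.

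**Figure D1:**
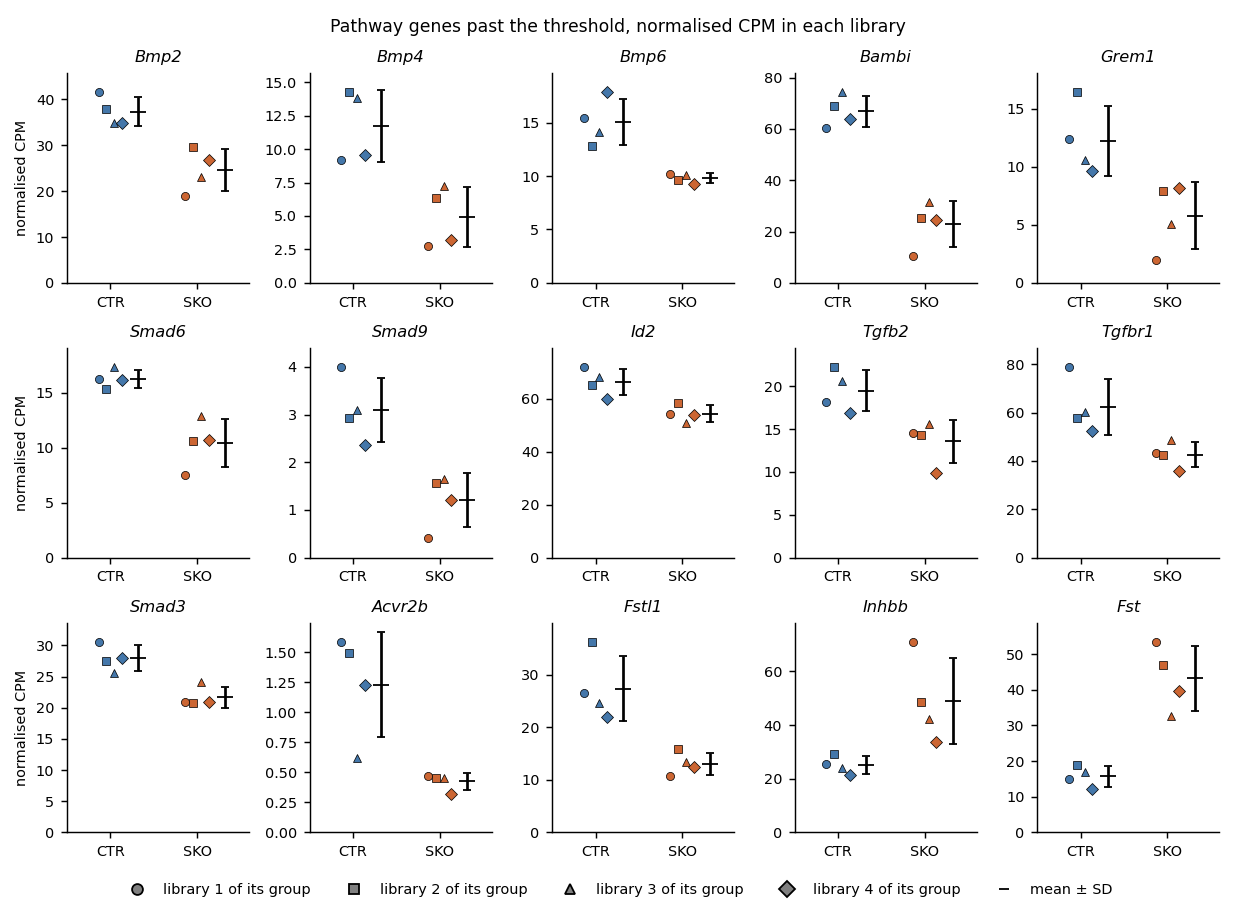
Normalised CPM (vertical axes, each from 0) of the 15 called genes in the 4 CTR and 4 SKO libraries, with the group mean ± SD as a bar beside the points. The groups did not overlap for any of the 15, and Inhbb and Fst were the ones that were higher in SKO.

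Total counts per library ranged from 16696212 to 21571935. Normalised CPM of Ppp1r8 was 37.9 ± 3.58 for CTR and 36.4 ± 8.00 for SKO (SD, n = 4 per group throughout), and a gene-level count does not check a deletion of unknown position. Keratinocyte markers were abundant, with 6 basal markers summing to 14683 to 16934 CPM in the 8 libraries. Of 10 hair shaft markers 9 fell, and their sum was 3057 to 5363 CPM in CTR and 159 to 1301 CPM in SKO. In SKO 1 to 4 that sum was 159, 797, 1301 and 297 CPM. Of 6 suprabasal markers 4 rose, with sums of 21029.5 to 23401 CPM in CTR and 43926 to 61798 CPM in SKO, most of it from Krt1 and Krt10, and Dsg1a fell (log2 fold change -0.31, adjusted p = 0.0252). All 5 Langerhans cell markers rose (84.5 to 133 CPM against 165 to 248 CPM), as did the 3 tested T cell markers of 5, or 1 under the stricter filter (7.32 to 11.6 CPM against 13.2 to 24.8 CPM). None of the 4 tested dermal fibroblast markers of 6 passed the threshold (33.8 to 52.7 CPM against 17.5 to 56.1 CPM), and 5 of 6 dermal papilla markers were under 1 CPM in all libraries. Smooth muscle and pericyte markers summed to 91.6 CPM in SKO 4 and 42.6 CPM in CTR 2, against 6.60 to 17.3 CPM in the other 6. Of 8 inner root sheath markers 7 fell (4745 to 9027 CPM against 288 to 3069.5 CPM), but 1 without CTR 2, without CTR 3, without SKO 4 or with the robust fit, and 4 without CTR 4. Of 5 melanocyte markers 4 rose (201.6 to 311 CPM against 295 to 512 CPM), and 2 without CTR 2, CTR 3 or CTR 4. Of 6 basal markers 3 fell (1 without SKO 4), and of 7 bulge markers 1. No endothelial or macrophage marker was called. No marker list had a gene at 0 in all libraries.

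Of the 5 ligand genes of the BMP branch, Bmp2, Bmp4 and Bmp6 fell, Bmp7 was not called and Gdf10 was not tested. Bmp4, which encodes a ligand made in the hair matrix and the dermal papilla, had 9.22, 14.2, 13.8 and 9.56 CPM in CTR 1 to 4 and 2.78, 6.37, 7.26 and 3.18 CPM in SKO 1 to 4. Every SKO library was below every CTR library, and SKO 1 and SKO 4 were the lowest. Bmp4 was 2.38-fold lower (log2 fold change -1.25, SE 0.30, adjusted p = 0.0152). In bulk RNA, fewer cells of a type and less RNA per cell cannot be told apart. The order of the SKO libraries for Bmp4 (SKO 1, SKO 4, SKO 2, SKO 3, from low to high) was that of the hair shaft marker sum, and the part of hair cell content in this fall was not tested.

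Bmp2, another ligand of the follicle and of differentiating keratinocytes, had 41.5, 37.9, 35.0 and 34.9 CPM in CTR and 19.0, 29.7, 23.1 and 26.8 CPM in SKO. It was 1.51-fold lower, with SKO 1 the lowest (log2 fold change -0.60, SE 0.13, adjusted p = 0.0100). Bmp6, a ligand of suprabasal epidermis and of the resting follicle, had 15.4, 12.8, 14.2 and 17.8 CPM in CTR and 10.2, 9.66, 10.1 and 9.21 CPM in SKO. The 4 SKO values lay close together (SD 0.463 CPM), and the fall was 1.54-fold (log2 fold change -0.62, SE 0.12, adjusted p = 0.00543). Of the exon bases of Bmp6, 224 overlap exons of Txndc5 on the other strand, which had 17661 counts against 1938 for Bmp6 over the 8 libraries, and the strand setting of the counting is not stated. Bmp7, which encodes a widely expressed epithelial ligand, had 145 ± 11.2 CPM in CTR and 145 ± 16.0 CPM in SKO (log2 fold change 0.01, SE 0.09, adjusted p = 0.968). On the scale of CPM per kilobase of exon, Bmp7 made up 64.7% ± 1.74 of the summed level of the 5 BMP branch ligands in CTR and 75.6% ± 3.82 in SKO (SD, n = 4 each), and the groups did not overlap.

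None of the receptor genes placed in the BMP branch was called. Acvr2a and Acvr2b, type II receptors for activins and BMPs, are given with the activin branch, where Acvr2b fell. Bmpr1a, the main type I BMP receptor of the epidermis and follicle, had 249.5, 245, 251 and 229.6 CPM in CTR and 229.9, 223, 244 and 202 CPM in SKO, so the groups overlapped (log2 fold change -0.12, SE 0.08, adjusted p = 0.280). Bmpr2, the type II receptor placed in this branch, had 322 ± 20.9 CPM in CTR and 285 ± 35.2 CPM in SKO (log2 fold change -0.18, SE 0.10, adjusted p = 0.205). Without SKO 3 it was called (log2 fold change -0.26, adjusted p = 0.0376). Acvr1, a type I receptor for BMPs, was at 41.1 ± 2.56 and 42.7 ± 4.90 CPM. Bmpr1b, another type I receptor, had 94 counts in all CTR and 40 in all SKO libraries (log2 fold change -1.21, SE 0.46, adjusted p = 0.0798, or 0.0386 with neighbouring mice as a block), and CTR 2 (2.31 CPM) stood above the other CTR libraries (0.717 to 0.866 CPM). Per kilobase of exon, Bmpr1a held 81.5% ± 0.701 of the summed type I receptor level in CTR and 79.9% ± 1.54 in SKO, and Bmpr1b under 1% in both.

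Among proteins that oppose BMP signals, the membrane pseudoreceptor gene Bambi had the largest fall in the BMP branch. BAMBI lacks a kinase domain, blocks signalling by BMP and TGF-beta receptors, and is itself induced by BMP in many cells. It had 60.5, 68.8, 74.2 and 63.8 CPM in CTR and 10.6, 25.2, 31.7 and 24.6 CPM in SKO. The groups were far apart, with SKO 1 the lowest and SKO 3 the highest, as for the hair shaft markers, and the part of hair cell content was not tested. Bambi was 2.90-fold lower (log2 fold change -1.54, SE 0.25, adjusted p = 0.00312), and without SKO 1 its log2 fold change was -1.29. Grem1, which encodes the secreted BMP antagonist gremlin, had 12.4, 16.4, 10.6 and 9.60 CPM in CTR and 1.99, 7.94, 5.11 and 8.15 CPM in SKO. It was 2.11-fold lower with an adjusted p of 0.0492 (SE 0.35 on the log2 scale), just inside the threshold. In SKO 1 to 4 the dermal fibroblast marker sum was 17.5, 55.1, 35.7 and 56.1 CPM, the same order as for Grem1. CTR 2 was the highest CTR library for both (52.7 CPM for the sum). The sum overlapped between the groups, and the part of dermal cell content in the fall of Grem1 was not tested. The Grem1 call ended without CTR 1, CTR 2, CTR 3, CTR 4 or SKO 3 (adjusted p = 0.0939, 0.128, 0.0753, 0.0589 and 0.0861), and in 5 of 9 other settings (adjusted p up to 0.0760).

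Nog, which encodes the antagonist noggin, had 1.49, 1.11, 1.61 and 2.02 CPM in CTR and 1.57, 2.43, 1.15 and 0.741 CPM in SKO. The groups overlapped, and the log2 fold change was -0.08 (SE 0.34, adjusted p = 0.892). Chrd, the gene of the antagonist chordin, had 63 counts in CTR and 114 in SKO over 4 libraries each (log2 fold change 0.85, SE 0.50, adjusted p = 0.245, or 0.0294 with neighbouring mice as a block). Chrd was highest in SKO 1 and CTR 1, and the groups overlapped.

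Inside the cell, the inhibitory SMAD of the BMP branch and its least abundant transducer fell. Smad6, whose protein blocks BMP type I receptors and SMAD1, and which BMP itself induces, had 16.2, 15.3, 17.3 and 16.1 CPM in CTR. In SKO 1 to 4 it had 7.55, 10.6, 12.9 and 10.7 CPM. CTR libraries lay close together, and all SKO libraries were below them (1.56-fold lower, log2 fold change -0.64, SE 0.15, adjusted p = 0.0125). Its promoter is the one above that holds the SMAD box at its start, and a link of this match to the fall was not tested.

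Smad9, the gene of the third BMP transducer SMAD9, had 4.00, 2.94, 3.09 and 2.35 CPM in CTR and 0.419, 1.57, 1.65 and 1.22 CPM in SKO. It was 2.53-fold lower, on 239 counts in CTR and 95 in SKO (log2 fold change -1.34, SE 0.34, adjusted p = 0.0191). The call ended without CTR 1 (log2 fold change -1.19, adjusted p = 0.0554). The other transducers were far more abundant and were not called. Smad1 had 60.8 ± 1.53 CPM in CTR and 65.0 ± 3.37 CPM in SKO (adjusted p = 0.302), and Smad5 132 ± 9.04 and 133 ± 7.79 CPM (adjusted p = 0.931). Per kilobase of exon, Smad9 was 2.05% ± 0.372 of the summed level of Smad1, Smad5 and Smad9 in CTR and 0.798% ± 0.369 in SKO.

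The ID proteins are inhibitors of basic helix-loop-helix factors, and their genes are direct BMP targets in many cells. Id2 had 71.9, 65.1, 68.1 and 60.0 CPM in CTR and 54.2, 58.4, 50.7 and 54.0 CPM in SKO, a 1.22-fold fall (log2 fold change -0.29, SE 0.08, adjusted p = 0.0243). The groups did not overlap, but CTR 4 and SKO 2 were close. The Id2 call ended without CTR 1, CTR 2, CTR 3, SKO 1 or SKO 4 (adjusted p = 0.0648, 0.0513, 0.0641, 0.0535 and 0.0610). Id1 did not pass the threshold, at 65.9, 69.3, 86.0 and 72.8 CPM in CTR and 77.1, 76.6, 64.1 and 98.2 CPM in SKO (log2 fold change 0.10, SE 0.13, adjusted p = 0.587). The BMP branch had 8 of 18 tested genes lower (44.4%, against 12.2% of all tested genes) and 0 higher (against 11.5%). Without CTR 1 there were 5, since Grem1, Smad9 and Id2 then missed the threshold.

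**Figure D2:**
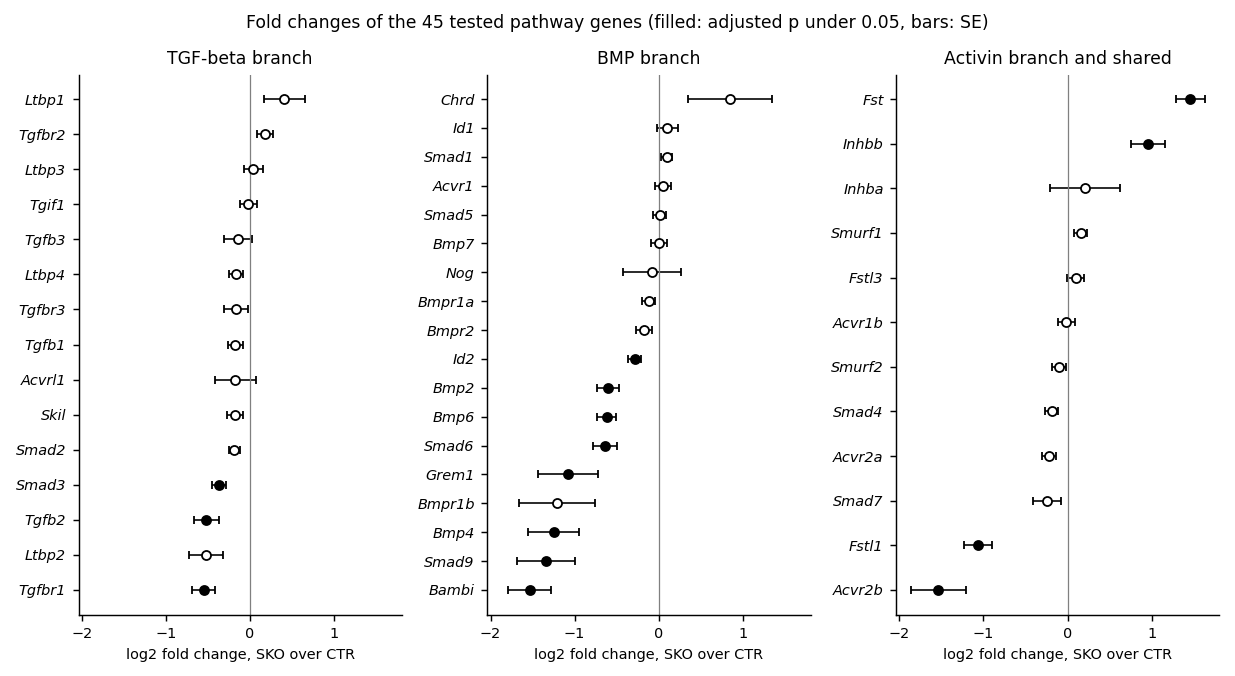
Log2 fold change of SKO over CTR (horizontal axes) for each tested gene by branch, with SE bars and filled points for called genes. Called falls stood in all 3 panels, and both called rises, Inhbb and Fst, in the panel of activin and shared genes.

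In the activin branch 2 of 8 tested genes rose, a ligand subunit gene and an antagonist gene, and 2 fell. Each was 25.0%, against 11.5% higher and 12.2% lower among all tested genes. Fst encodes follistatin, which binds activins tightly and BMPs less so. It had 14.96, 18.9, 16.9 and 12.1 CPM in CTR and 53.5, 47.1, 32.6 and 39.7 CPM in SKO. The groups did not overlap, with SKO 1 the highest, and the rise was 2.75-fold (log2 fold change 1.46, SE 0.17, adjusted p = 0.000693), the smallest adjusted p among the members. Without any 1 library the log2 fold change was 1.35 to 1.57.

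Inhbb, the gene of the beta B subunit of activin B and inhibin B, had 25.5, 29.4, 24.1 and 21.4 CPM in CTR and 71.1, 48.5, 42.3 and 33.6 CPM in SKO. It rose 1.95-fold (log2 fold change 0.96, SE 0.20, adjusted p = 0.00873), and SKO 1 was the highest, so that without it the log2 fold change was 0.73. SKO 1, which had the lowest hair shaft sum, was highest for both Fst and Inhbb. The suprabasal, Langerhans cell, T cell and melanocyte sums were also at their highest there (61798, 248, 24.8 and 512 CPM). The part of cell content in these rises was not tested. Inhba, the gene of the beta A subunit, was near the detection limit with 56 counts in CTR and 64 in SKO (adjusted p = 0.753). On average, Inhbb thus held 98.2% ± 0.938 (CTR) and 98.8% ± 0.575 (SKO) of the summed per-kilobase level of the activin beta subunits.

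The other activin antagonist gene, Fstl3, a follistatin relative, had 24.5 ± 1.94 CPM in CTR and 26.1 ± 3.14 CPM in SKO (log2 fold change 0.10, SE 0.10, adjusted p = 0.528). Per kilobase of exon, Fst was 25.3% ± 2.11 of the sum of Fst and Fstl3 in CTR and 46.6% ± 7.76 in SKO, with no overlap. Fstl1, which shares a follistatin domain and has been tied to BMP4 binding and to wound re-epithelialisation, moved the other way. It had 26.5, 36.3, 24.7 and 21.98 CPM in CTR and 10.7, 15.8, 13.3 and 12.4 CPM in SKO. The gap between the groups was wider than the spread among SKO libraries, and the fall was 2.09-fold (log2 fold change -1.07, SE 0.17, adjusted p = 0.00249).

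Of the activin receptor genes, Acvr2b, a type II receptor, fell on low counts. It had 1.59, 1.49, 0.619 and 1.22 CPM in CTR and 0.472, 0.455, 0.451 and 0.318 CPM in SKO, 98 against 33 counts over 4 libraries each. The log2 fold change was -1.54 (SE 0.33, adjusted p = 0.00879). No SKO library reached the level of the count filter (0.518 CPM), so the gene was tested only because CTR did. Under the stricter filter of at least 1 CPM in 4 libraries it was not tested. Acvr2a, the more abundant type II receptor gene, had 74.9, 71.6, 69.9 and 65.7 CPM in CTR and 59.0, 65.6, 65.4 and 52.2 CPM in SKO, where SKO 2 all but met CTR 4 (log2 fold change -0.22, SE 0.09, adjusted p = 0.0916). Of the exon bases of Acvr2a, 446 overlap exons of Orc4 on the other strand. Orc4 had 6916 counts against 10193 for Acvr2a over the 8 libraries. Acvr1b, the type I activin receptor ALK4, was at 154 ± 15.9 and 152 ± 16.3 CPM (adjusted p = 0.929).

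In the TGF-beta branch, 3 of 15 genes fell and 0 rose. Tgfb2 encodes a ligand expressed in the follicle. It had 18.2, 22.2, 20.6 and 16.9 CPM in CTR and 14.6, 14.3, 15.6 and 9.85 CPM in SKO, where SKO 4 was the lowest. It was 1.43-fold lower (log2 fold change -0.52, SE 0.15, adjusted p = 0.0302), and the call ended without CTR 2, CTR 3, SKO 2 or SKO 4 (adjusted p = 0.0803, 0.0733, 0.0528 and 0.0501). Tgfb1 had 17.3, 16.6, 17.3 and 16.4 CPM in CTR and 14.2, 14.9, 14.1 and 16.6 CPM in SKO, where SKO 4 overlapped with CTR (log2 fold change -0.17, SE 0.09, adjusted p = 0.177). Tgfb3 was the least abundant of the ligand genes of this branch, at 6.90 ± 1.505 and 6.26 ± 0.555 CPM (adjusted p = 0.557), and also per kilobase (2.04 ± 0.445 and 1.85 ± 0.164 CPM per kb).

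Tgfbr1, the type I receptor ALK5, had 78.8, 57.9, 60.4 and 52.3 CPM in CTR and 43.2, 42.4, 48.8 and 35.9 CPM in SKO. The groups did not overlap, and the gene was 1.47-fold lower (log2 fold change -0.55, SE 0.13, adjusted p = 0.0157). Tgfbr2, the type II receptor with which ALK5 pairs, had 62.8, 51.4, 51.0 and 63.0 CPM in CTR and 61.6, 71.9, 64.0 and 61.5 CPM in SKO. Its log2 fold change was 0.18 (SE 0.10, adjusted p = 0.193). The coreceptor gene Tgfbr3 was at 23.3 ± 3.48 and 20.8 ± 3.39 CPM (adjusted p = 0.424). Acvrl1, the endothelial type I receptor ALK1, was at 4.32 ± 0.652 and 3.82 ± 1.22 CPM (adjusted p = 0.636).

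Of the TGF-beta transducers, Smad3 had 30.6, 27.5, 25.6 and 28.0 CPM in CTR and 20.9, 20.7, 24.1 and 21.0 CPM in SKO. The fall was 1.29-fold (log2 fold change -0.37, SE 0.09, adjusted p = 0.0143). Smad2 was below CTR in every SKO library as well, at 82.0 ± 5.59 and 72.2 ± 3.39 CPM, and missed the threshold (log2 fold change -0.18, SE 0.07, adjusted p = 0.0853). Smad4, the partner of both SMAD sets, had 88.4, 79.6, 75.6 and 71.5 CPM in CTR and 69.9, 69.4, 70.8 and 66.6 CPM in SKO. The groups did not overlap, but CTR 4 lay within 1 CPM of SKO 3, and the gene was not called (log2 fold change -0.19, SE 0.08, adjusted p = 0.0973).

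The remaining regulators of the list were not called. That leaves 0 of 4 called among the genes shared by the branches (Smad4, Smad7, Smurf1 and Smurf2), against 23.7% of all tested genes. The latent TGF-beta binding protein genes, which hold TGF-beta in the matrix, had log2 fold changes from -0.52 for Ltbp2 (adjusted p = 0.0853, or 0.0281 with neighbouring mice as a block) to 0.41 for Ltbp1 (adjusted p = 0.249). Ltbp3 was at 0.04 and Ltbp4 at -0.16 on that scale. The nuclear corepressor genes Skil and Tgif1 had log2 fold changes of -0.18 and -0.02. Smad7, which encodes the inhibitory SMAD of both branches, had 23.3 ± 5.62 CPM in CTR and 19.7 ± 2.06 CPM in SKO (log2 fold change -0.24, SE 0.16, adjusted p = 0.304). The ubiquitin ligase genes Smurf1 and Smurf2, whose products target SMADs and receptors for degradation, had log2 fold changes of 0.16 and -0.11 (adjusted p = 0.183 and 0.389).

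Compared per kilobase of exon, the most abundant members in CTR were Id1 (63.4 ± 7.58 CPM per kb), Bmpr1a (38.4 ± 1.55), Bmp7 (36.0 ± 2.79) and Acvr1b (34.8 ± 3.59), all in CPM per kb. Bmpr1a, Bmp7 and Acvr1b did not differ beyond their spread. Below them came Id2 (27.2 ± 2.07 CPM per kb) and Smad4 (21.2 ± 1.94 CPM per kb). The TGF-beta ligands were lower, with Tgfb2 and Tgfb1 alike at 3.36 ± 0.413 and 3.35 ± 0.0929 CPM per kb. The lowest were Bmpr1b, Chrd, Inhba and Gdf10, with 0.199, 0.130, 0.110 and 0.0340 CPM per kb. In SKO, Bambi went from 13.2 ± 1.18 to 4.54 ± 1.75 CPM per kb and Fst from 3.42 ± 0.624 to 9.41 ± 1.97 CPM per kb.

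**Figure D3:**
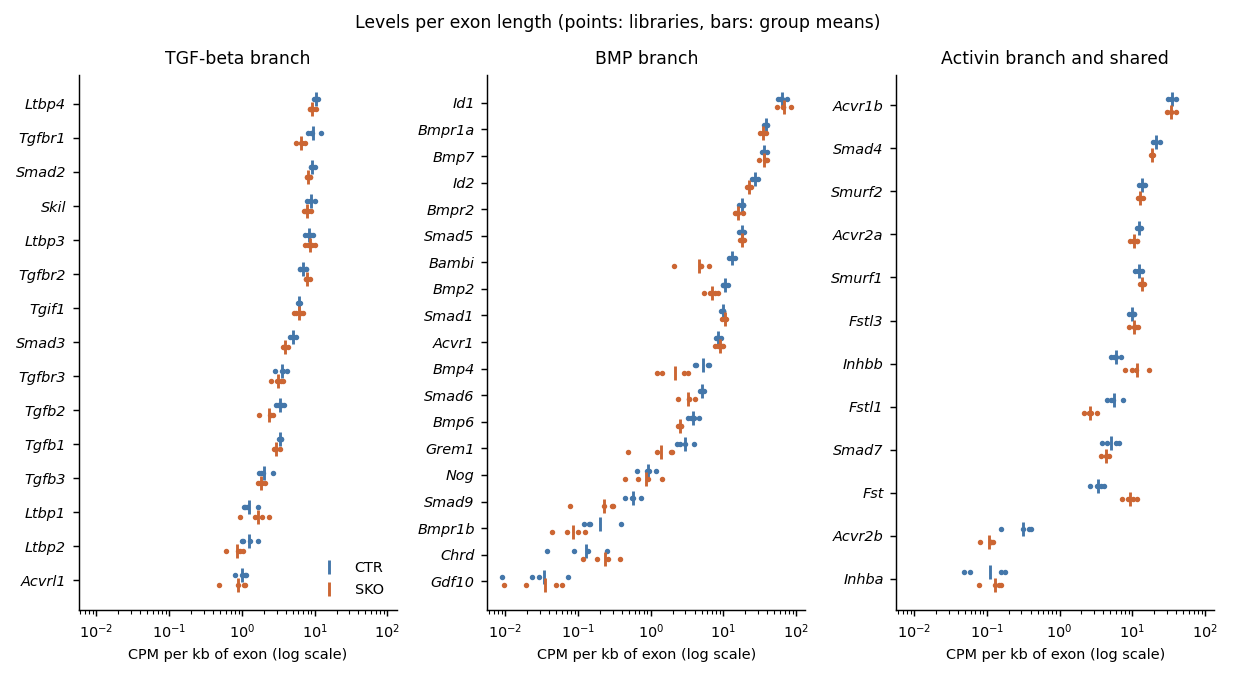
Level of each of the 46 genes in CPM per kb of exon (log scale), with points for libraries and bars for group means, CTR in blue above SKO in orange. Levels ran from 0.0340 CPM per kb for Gdf10 to 63.4 CPM per kb for Id1 in CTR.

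Members that fell did not all follow the same order of SKO libraries. SKO 1 was the lowest SKO library for 7 of the 13 (Bmp2, Bmp4, Grem1, Bambi, Smad9, Smad6 and Fstl1), SKO 4 for 4 (Tgfb2, Tgfbr1, Bmp6 and Acvr2b), and SKO 2 and SKO 3 for 1 each (Smad3 and Id2). For Bambi, Bmp4 and Smad9 the full order was that of the hair shaft marker sum. The inner root sheath sum had the same order (288, 2413, 3069.5 and 789 CPM in SKO 1 to 4). So did the first principal component, the axis of largest variation over all tested genes (61.8% of the variance), with SKO 1 farthest from CTR. What underlies this order was not tested. Relative to the CTR mean, Bambi stood at -2.65 in SKO 1 and -1.08 in SKO 3 on the log2 scale, and Smad9 at -2.88 and -0.90. For Bmp6 the corresponding values were -0.56 and -0.57, and for Id2 -0.29 and -0.39. SKO 3 had the highest hair shaft sum of the SKO libraries, 1301 CPM, which was also below every CTR library.

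**Figure D4:**
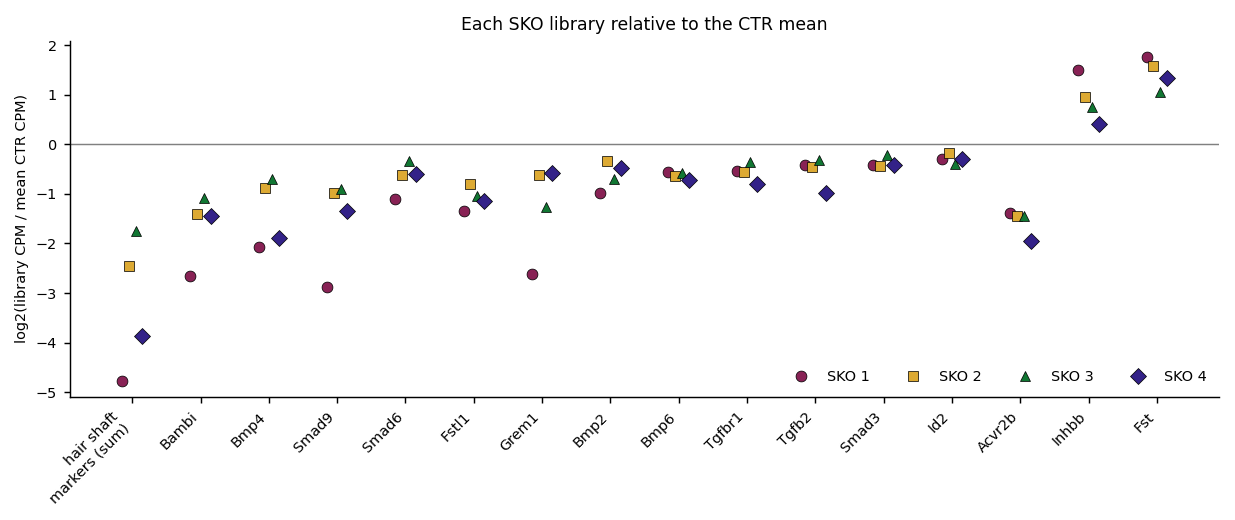
Log2 ratio of each SKO library to the CTR mean (vertical axis) for the hair shaft marker sum and the 15 called genes, 1 symbol per library. SKO 1 and SKO 3 stand far apart for the hair shaft markers, Bambi and Smad9 (-2.88 and -0.90), and close together for Bmp6 and Id2.

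Other genes of the pathway were taken from further lists. Of 42 extracellular genes 22 could be tested. Of these 8 rose (36.4%, against 11.5% of all tested genes) and 3 fell (13.6%, near the 12.2% of all tested genes). Without CTR 1, 5 rose. Emilin1, one of the 8, passed the count filter through SKO, and Bmp8a, one of the 3, through CTR, so these shares are a description. Genes of BMP antagonists stood on both sides. Nbl1, whose product DAN binds BMPs, had 54.5, 54.1, 45.8 and 42.2 CPM in CTR and 101, 94.8, 71.3 and 86.1 CPM in SKO (1.79-fold higher, log2 fold change 0.84, SE 0.12, adjusted p = 0.00165). Sostdc1, which encodes a BMP and Wnt antagonist of the follicle, went from 70.0 ± 6.91 to 114 ± 33.7 CPM (adjusted p = 0.0212). SKO 4, at 76.6 CPM, was within the CTR range, and the call ended without CTR 1 or CTR 4 (adjusted p = 0.0563 and 0.0553). Bmper, another BMP-binding protein gene, fell from 3.75 ± 1.11 to 1.66 ± 0.640 CPM (adjusted p = 0.0247). That call ended without CTR 2, CTR 4 or SKO 4 (adjusted p = 0.0690, 0.0509 and 0.0593).

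Bmp8a, a further BMP ligand gene, had 5.94, 10.6, 7.42 and 6.78 CPM in CTR and 0.210, 1.52, 2.90 and 0.582 CPM in SKO. This was the largest fold change among the pathway genes of all lists (5.84-fold lower, log2 fold change -2.55, SE 0.52, adjusted p = 0.00723), and the SKO order was again that of the hair shaft markers. Without SKO 3 its log2 fold change was -3.30. The part of hair cell content in the fall of Bmp8a was not tested. Inha, the inhibin alpha subunit gene, rose from 6.52 ± 0.509 to 11.3 ± 1.23 CPM (1.73-fold, adjusted p = 0.00208). Lrrc32, whose product GARP anchors latent TGF-beta at the cell surface and is known from regulatory T cells, had 7.22, 7.46, 9.40 and 5.51 CPM in CTR and 32.4, 22.9, 17.3 and 8.47 CPM in SKO. It rose 2.75-fold (adjusted p = 0.0135), and SKO 4 was within the CTR range. The T cell markers, which were higher in SKO, had their lowest SKO sum in SKO 4 and their highest in SKO 1, as Lrrc32 did, and their part in this rise was not tested.

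Of 20 intracellular genes 19 could be tested, and 2 fell (10.5%, near the 12.2% of all tested genes), Tab2 and Ube2o. Tab2, an adaptor of the kinase TAK1, was 1.24-fold lower (adjusted p = 0.0101). Ube2o, a ubiquitin-conjugating enzyme gene, was 1.20-fold lower (adjusted p = 0.0372). Its call ended without CTR 1, CTR 2, CTR 3, SKO 2 or SKO 4 (adjusted p = 0.0832, 0.0877, 0.0881, 0.102 and 0.0936), with no count filter (0.0693) and with upper-quartile factors (0.0551).

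Target genes of the pathway were counted in lists of their own. Of 16 TGF-beta and activin target genes, Fn1 and Tgfbi fell and 0 rose, 12.5% against 23.7% of all tested genes. The fibronectin gene Fn1 went from 32.1 ± 8.88 to 15.6 ± 4.22 CPM (adjusted p = 0.00914), and the matrix protein gene Tgfbi from 386 ± 36.7 to 309 ± 9.94 CPM (adjusted p = 0.0191). The Tgfbi call ended without SKO 2 (adjusted p = 0.0643). Without CTR 2, without SKO 3 or with neighbouring mice as a block, 1 gene of this list rose.

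Of 11 BMP target genes 10 fell (90.9%, against 12.2% of all tested genes), with a median log2 fold change of -1.25. Atoh8 and Hey1, among the 10, passed the count filter through CTR, so this count is a description. Without 1 library, 7 to 10 fell. Id4 was the 1 not called (log2 fold change -0.01, adjusted p = 0.964), and Id3 fell with an adjusted p of 0.0438. The BMP targets Id1 and Id2 were counted among the members instead. There Id1 was not called (log2 fold change 0.10, adjusted p = 0.587) and Id2 fell 1.22-fold. This list is no independent reading of BMP activity, since Lef1, Hoxc13, Foxn1, Dlx3 and Gata3 were chosen as hair genes downstream of BMP. Msx2, Hoxc13 and Gata3 are also among the hair markers used here. Lef1, a Wnt effector of the hair matrix, had 18.1, 28.1, 33.1 and 29.2 CPM in CTR and 2.94, 9.56, 10.2 and 4.34 CPM in SKO (SE 0.35 on the log2 scale, adjusted p = 0.00395), and the groups did not overlap. Msx2, a homeobox gene of the hair matrix, fell from 66.9 ± 13.1 to 18.5 ± 8.91 CPM (adjusted p = 0.00387), and its relative Msx1 from 7.34 ± 2.46 to 2.15 ± 1.28 CPM (adjusted p = 0.0146). Hoxc13, Dlx3 and Foxn1, transcription factor genes of hair differentiation, were 2.42-, 2.38- and 2.28-fold lower (adjusted p = 0.00182, 0.00486 and 0.00226).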

How the data were processed

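The authors deposited 1 table of raw read counts per Ensembl gene for 8 libraries of tail epidermis. The submitters' processing notes name STAR 2.4.1d, featureCounts 1.4.6 and edgeR 3.8.6 among the tools, with build GRCm38. Strand setting and annotation release are not given in the sources used here. Symbols, positions and exon lengths came from GENCODE M21 (same build), which held 46488 of 46983 identifiers.

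Group differences were fitted to all counts in R 4.3.3 with edgeR 4.0.16 (glmQLFit, glmQLFTest, two-sided, trimmed mean of M values, filterByExpr defaults), group as the only term. Libraries are separate mice, and no pair within a group agreed within sampling noise. Litter and sex were not given. Mouse identifiers in the titles form 4 neighbouring pairs of CTR and SKO (equal library numbers here), and deviations from group means correlated at 0.152 to 0.400 within these pairs and -0.265 to 0.162 between other CTR and SKO libraries. A fit with these pairs as a block was therefore added after seeing the data. What a neighbouring identifier means is not stated. The fit was tested on simulated data.

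Members and lists were chosen with earlier results of these data known. Members are all reported. From each further list, the named genes are the called ones with the greatest change, up to 6, whose mean reached 1 CPM. Alternatives were DESeq2 1.42.0, limma 3.58.1 (voom), other normalizations and filters, and leaving out each library. Krt85, a listed hair shaft marker, was not used here.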

Additional observations from a re-analysis of the deposited data

Results flagged for a closer look

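Within groups of 4, a value was set apart when its gap to the nearest other value was large against the group's range by Dixon's test at 95%, which chance gives in about 1 of 20 groups. Of 116 groups of values, 7 met this. Among the pathway genes these were Smad3 in SKO 3 (24.1 CPM against 20.7 to 21.0 CPM in the other SKO libraries) and Bmpr1b in CTR 2 (2.31 CPM against 0.717 to 0.866 CPM). Bmpr2 in CTR 4 had 291 CPM against 332 to 334 CPM, and Acvr2b in SKO 4 had 0.318 CPM against 0.451 to 0.472 CPM. Among the markers, the dermal fibroblast sum was 52.7 CPM in CTR 2 against 33.8 to 36.9 CPM in the other CTR libraries. The smooth muscle and pericyte sum was 91.6 CPM in SKO 4 against 6.60 to 7.99 CPM. The macrophage sum was 21.4 CPM in SKO 3 against 17.7 to 18.3 CPM.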

How the results depend on the processing

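Across 17 alternatives (9 other settings and 8 with 1 library left out), 11 of the 15 called members kept their call in each one where they were tested: all but Grem1, Id2, Smad9 and Tgfb2, whose values stand in the report. With neighbouring mice as a replicate block, 3 members were higher and 15 lower, since Chrd (1 higher gene in the BMP branch, in place of 0), Bmpr1b and Ltbp2 were then called, and it changed the call of no other member. In the other 16 alternatives 2 members were higher. Without 1 library, 10 to 13 members were lower, 5 to 8 of them in the BMP branch. With the stricter count filter 1 activin gene was lower in place of 2, since Acvr2b was not tested. No called member changed direction. Members that were not called and lie near 0 changed sign. With library totals or upper-quartile factors, Acvr1b was at 0.0048 and 0.0111 and Tgif1 at 0.0041 and 0.0078 on the log2 scale. Without 1 library their log2 fold changes ranged from -0.0800 to 0.0494 for Acvr1b, -0.2911 to 0.0323 for Acvrl1, -0.0319 to 0.0827 for Bmp7, -0.0166 to 0.1931 for Id1 and -0.0173 to 0.5092 for Inhba. The ranges were -0.0347 to 0.1126 for Ltbp3, -0.4234 to 0.1426 for Nog, -0.0264 to 0.0438 for Smad5, -0.2177 to 0.0214 for Tgfb3 and -0.0923 to 0.0468 for Tgif1. Few counts limit what can be said of Acvr2b, Bmpr1b, Chrd and Inhba.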
